A study of Homo sapiens with 3 samples.

Results

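The genes described here are the DEAD box and DEAH box RNA helicases in TC32 cells, a long-established line from an Ewing sarcoma. They were taken by name: every gene whose symbol, or 1 part of a joined symbol, starts with DDX or DHX and a digit, leaving out pseudogenes and antisense genes. That gave 56 symbols of the 22713 gene names measured, on 55 loci, because DDX21 and DDX50 share 1 locus. A total of 45 of these loci had a mean of at least 1 scaled FPKM over the 3 libraries and were compared. FPKM counts fragments relative to the length of the locus and to the depth of the library, so levels can be set side by side between genes.

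The study sequenced 3 RNA-seq libraries of TC32 cells, with 1 library in each group. The control library is labelled as wild-type cells, the knockdown library as cells with knockdown of the fusion protein EWS-FLI1, and the treated library as cells given the small molecule YK-4-279 at 3 µM for 15 h, with DMSO as its vehicle. No source used here says whether the control received DMSO or a control hairpin, or how long the knockdown lasted. The knockdown library is titled shEF while the header of its values reads dEF. With no second library in any group, every ratio below compares libraries and has no replicate check, so no test was made and "higher" and "lower" mean at least a 2-fold ratio, a log2 ratio of 1 or more in size.

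DEAD and DEAH box proteins use ATP to unwind or remodel RNA and the proteins bound to it. Nearly every step in the life of an RNA has its own members: transcription, splicing, ribosome assembly, export, translation and decay. EWS-FLI1, the fusion transcription factor of most Ewing sarcomas, binds GGAA repeats in DNA and makes contact with the helicase DHX9, also called RNA helicase A. YK-4-279 was developed as a blocker of the contact between EWS-FLI1 and DHX9.

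The deposited values lay on different scales, and against control the median gene was 4.37-fold lower after knockdown and 6.32-fold lower with YK-4-279. Each library was therefore multiplied by 1 factor (0.325 for control, 1.44 for knockdown and 2.12 for YK-4-279), which takes the median gene as not different. After this step the knockdown library still differed from control by level. Its median log2 ratio was 0.54 in the lowest and -0.99 in the highest of 10 equal bins of genes by mean level, against 0.17 and 0.0043 with YK-4-279. Ratios are therefore also given less the median of all compared genes in the same bin, called level-adjusted ratios here. FLI1, the 3' partner of the fusion, stood at 21.4 scaled FPKM in control cells, 2.13 after knockdown and 17.6 with YK-4-279, a log2 ratio of -2.84 in the knockdown library. EWSR1, the 5' partner, stood at 80.2, 58.5 and 76.9 scaled FPKM in the same order. Of the 7 Ewing sarcoma markers, 6 were compared and 5 of them were lower in the knockdown library, while CD99, a surface marker of these tumours, was listed at 0 in all 3 libraries. Summed fibroblast markers were 23.1, 43.5 and 20.7 scaled FPKM in control, knockdown and YK-4-279: after knockdown LUM, PDGFRA and PDGFRB were higher and DCN was lower. LUM alone made up 13.7, 36.0 and 13.5 of these sums in the same order. None of the 3 leukocyte, 3 endothelial or 3 epithelial markers reached the minimum level, and their summed levels ran from 0.0681 to 1.65 scaled FPKM. The part of these markers in the helicase ratios was not tested.

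DHX9 RNA was lower in the knockdown library and short of a 2-fold ratio with YK-4-279. Its deposited FPKM was 412 in control cells, 35.8 after knockdown and 41.3 with YK-4-279. After scaling these values became 134, 51.5 and 87.4, so the control was highest and the knockdown library lowest. The log2 ratio to control was -1.36 after knockdown (standard error from counting alone 0.017) and -0.61 with YK-4-279 (standard error 0.015). DHX9 lies in the highest bin of expression, and its level-adjusted log2 ratios were -0.37 after knockdown and -0.61 with YK-4-279. The 2-fold difference in the knockdown library was thus not reached once genes of like level were taken as the reference. With YK-4-279 the log2 ratio of DHX9 passed 2-fold under 2 other scalings. It was -1.07 with deposited ratios centred on their median, where 4.37% of all genes were lower. With factors from all named genes above 0, chosen after seeing the data, it was -1.12 beside a median of -0.39 for all genes. In unscaled FPKM it was -3.29, beside a median of -2.22 for all genes. In bulk RNA, less DHX9 RNA per cell and fewer cells that carry it cannot be told apart, here and for the other genes. In the ranking of helicases by level DHX9 was number 7 in the control, number 7 in the knockdown library and number 9 with YK-4-279.

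Over the whole family, more helicases were lower than higher in the knockdown library. Of the 45 compared, 5 were higher and 14 lower than control, and 26 were neither, with a median log2 ratio of -0.39. Among all 9731 compared genes, 18.7% were higher and 17.3% lower, and the median was 0.019. The 5 higher helicases were DDX42, DDX17, DHX16, DHX40 and DDX56. In unscaled FPKM all 5 were below control, where the median log2 ratio of all genes was -1.78. With factors from all named genes above 0, a scaling chosen after seeing the data, 0 helicases were higher. On that scale 9.79% of all genes were higher and their median was -0.52. Most of the lower helicases were abundant. In the 3 highest bins of expression 12 of 21 helicases were lower (57.1%) and 2 of 21 higher (9.52%), beside 40.3% and 8.49% of all genes at those levels. In the 4 lowest bins 0 of 8 helicases were called in either direction, where 26.1% of all genes were higher and 2.93% lower. That 0 depends on the pseudocount of 1: with 0.1, the scarce DDX26B (1.07), DDX51 (1.09) and DDX58 (1.02) passed 2-fold. At a pseudocount of 0.1, 25.7% of all compared genes were higher, and the share within the 4 lowest bins is not given. With level-adjusted ratios, 4 helicases were higher (DDX56, DDX17, DDX42 and DHX40) and 2 lower (DDX10 and DDX39A), beside 15.4% and 10.3% of all genes. The helicases' share of lower genes was thus 4.44% on that scale, below the background, and their median was -0.18.

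**Figure D1:**
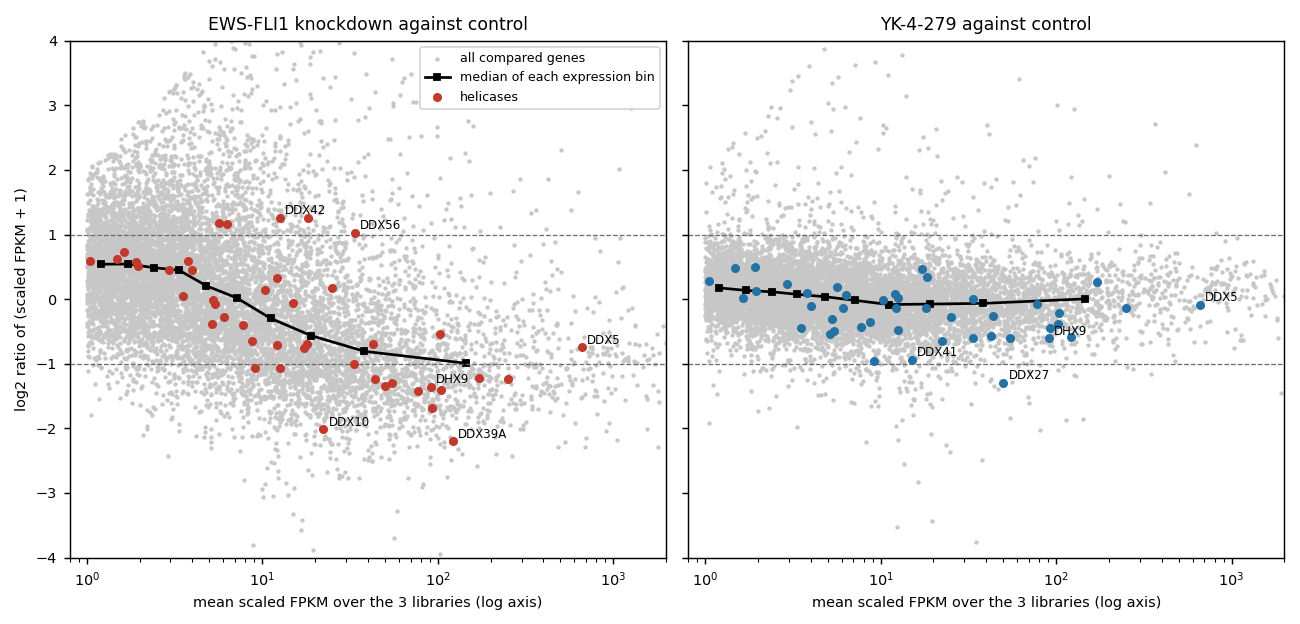
Log2 ratio to control of each compared gene (vertical axis, log2 of scaled FPKM + 1) against its mean scaled FPKM over the 3 libraries (horizontal log axis), for the knockdown library (left) and YK-4-279 (right). Grey points are all compared genes, coloured points the helicases, black squares the median of each expression bin, dashed lines a 2-fold ratio; the vertical axis ends at 4 in size, and 102 genes lie beyond it in at least 1 panel. In the knockdown panel the medians fall from 0.54 to -0.99 with level and DDX39A and DDX10 lie farthest below them.

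With YK-4-279, 0 of 45 helicases were higher and 1 was lower than control, DDX27. The background was 2.76% higher and 1.72% lower. The count depends on the scale, with 9 lower and 2 higher for deposited ratios centred on their median, where 4.37% of all genes were lower and 13.1% higher. With factors from all named genes above 0, 10 of 44 were lower, beside 8.40% of all genes. The family's median log2 ratio was -0.14, beside 0.036 for all genes, and 30 of the 45 ratios were below 0, a share of genes that was 46.4% over all compared genes. After level adjustment the counts were again 0 higher and 1 lower, beside 2.65% and 1.78% of all genes.

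The promoters of 6 helicases are printed because these genes carry the results: DHX9, the partner of the fusion protein; DDX39A and DDX10, lowest in the knockdown library; DDX42 and DDX17, highest there; and DDX27, lower with YK-4-279. Each run is the 250 bases before the start of the gene, 5' to 3' on the strand of the gene, from RefSeq on GRCh38.p14. That is not the GRCh37 build of the values, and no coordinate was carried over. Capitals mark GGAA or its reverse complement TTCC, the core that ETS factors such as FLI1 recognise.
DHX9, chr1:182839097-182839346, plus strand: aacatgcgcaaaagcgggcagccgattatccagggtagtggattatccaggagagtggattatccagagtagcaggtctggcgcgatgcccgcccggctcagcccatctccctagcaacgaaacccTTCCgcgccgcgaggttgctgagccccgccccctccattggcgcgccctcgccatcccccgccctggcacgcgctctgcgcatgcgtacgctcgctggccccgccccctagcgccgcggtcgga
DDX39A, chr19:14419384-14419633, minus strand: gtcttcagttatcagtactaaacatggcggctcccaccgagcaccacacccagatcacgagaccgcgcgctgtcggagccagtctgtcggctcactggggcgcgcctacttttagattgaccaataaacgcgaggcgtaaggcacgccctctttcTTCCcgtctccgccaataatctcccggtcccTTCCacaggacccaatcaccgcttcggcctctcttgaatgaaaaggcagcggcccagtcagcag
DDX10, chr11:108664819-108665068, plus strand: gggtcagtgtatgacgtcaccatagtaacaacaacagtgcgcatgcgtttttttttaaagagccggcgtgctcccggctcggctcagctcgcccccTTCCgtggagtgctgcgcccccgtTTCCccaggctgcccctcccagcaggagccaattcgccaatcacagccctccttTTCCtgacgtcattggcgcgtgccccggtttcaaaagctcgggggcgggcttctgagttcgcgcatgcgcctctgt
DDX42, chr17:63773920-63774169, plus strand: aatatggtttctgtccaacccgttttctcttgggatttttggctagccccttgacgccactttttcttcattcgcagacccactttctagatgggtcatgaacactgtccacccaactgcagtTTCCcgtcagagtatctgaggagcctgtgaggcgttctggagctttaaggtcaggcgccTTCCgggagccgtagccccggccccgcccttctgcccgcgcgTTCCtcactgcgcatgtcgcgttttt
DDX17, chr22:38506312-38506561, minus strand: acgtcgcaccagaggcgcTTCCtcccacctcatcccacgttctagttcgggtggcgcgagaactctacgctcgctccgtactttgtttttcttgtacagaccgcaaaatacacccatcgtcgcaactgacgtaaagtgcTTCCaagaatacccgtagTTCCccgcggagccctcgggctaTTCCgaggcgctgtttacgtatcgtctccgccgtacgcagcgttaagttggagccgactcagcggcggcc
DDX27, chr20:49219166-49219415, plus strand: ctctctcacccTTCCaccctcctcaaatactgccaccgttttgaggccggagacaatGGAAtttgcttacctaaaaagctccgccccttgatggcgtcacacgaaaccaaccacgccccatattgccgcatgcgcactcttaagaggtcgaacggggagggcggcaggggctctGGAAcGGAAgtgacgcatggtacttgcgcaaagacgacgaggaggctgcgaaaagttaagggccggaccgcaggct

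The 6 windows hold 1 core in DHX9, 2 in DDX39A, 3 in DDX10, 3 in DDX42, 4 in DDX17 and 4 in DDX27. A window was found for 41 of 45 symbols on the tabulated compared loci, and was not found for DDX18, DDX49, DDX52 and DHX33. Older symbols were matched through RefSeq synonyms, and DDX39A has 2 windows in the table, of which the first is shown. Across the 41 windows the median was 4 cores (1 to 10), beside 3 for the promoters of all compared genes. The longer ETS motif CCGGAAG, searched on both strands, stood in 15 of 41 windows (36.6%), against 17.9% of 8193 windows of compared genes and 8.82% of all 27305 windows. It was in 6 of 14 windows of helicases lower in the knockdown library, 3 of 5 of those higher and 6 of 22 of the rest. The 14 windows are not the 14 lower loci: DDX18 has none, and DDX21 and DDX50, on 1 locus, have a window each, both with the motif. DHX9, DDX39A, DDX10, DDX17 and DDX27 lack it and DDX42 holds it. The tandem core GGAAGGAA, which overlaps the single core and was searched on both strands, stood in 2 of 41 helicase windows (4.88%) and 2.73% of the windows of compared genes. The E-box CACGTG stood in 5 of 41 (12.2%), beside 9.45%. A motif here is a match of letters in the window and shows nothing about binding.

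Pre-mRNA splicing helicases drive the rearrangements of the spliceosome, and all 13 members grouped under that role were compared. The grouping was by list, and a role in splicing was not tested here for any of them. In the knockdown library 3 were higher, 4 lower and 6 neither, beside 18.7% higher and 17.3% lower of all compared genes. Their median log2 ratio was -0.073, and 0.11 after level adjustment. DDX39A, which with DDX39B couples splicing to mRNA export, stood at 194 scaled FPKM in control cells, 41.6 after knockdown and 129 with YK-4-279. Its log2 ratio of -2.20 in the knockdown library was the lowest of the family, and -1.21 after level adjustment. With YK-4-279 the ratio was -0.58. DDX39B, also known as UAP56, stood at 195, 83.1 and 235 scaled FPKM in the same order, with log2 ratios of -1.22 and 0.27. The level-adjusted value of DDX39B in the knockdown library was -0.23, so this near copy of DDX39A was close to the other abundant genes. Reads of DDX39A and DDX39B can be hard to tell apart, and the handling of shared reads is not given in the sources used here.

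DHX15, which takes the spliceosome apart after splicing, read 140, 52.2 and 121 scaled FPKM in control, knockdown and YK-4-279. Its log2 ratios were -1.41 and -0.21, and the knockdown value was -0.41 after level adjustment. DHX35, found in spliceosomes, read 14.3, 6.29 and 6.86 scaled FPKM, so both treated libraries lay below the control. The log2 ratios of DHX35 were -1.07 in the knockdown library, past the threshold, and -0.96 with YK-4-279, just short of it, and the knockdown ratio was -0.77 after level adjustment. DDX41, a splicing factor also mutated in familial leukaemia, read 18.4, 17.6 and 9.09 scaled FPKM, a log2 ratio of -0.057 after knockdown and -0.94 with YK-4-279 (standard error from counting 0.11). Both DHX35 and DDX41 fell short of the 2-fold threshold in the YK-4-279 library with the pseudocount of 1, and with 0.1 they passed it at -1.05 and -1.01.

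DDX42, a U2 snRNP-associated helicase, was higher in the knockdown library than in either of the others. Its scaled FPKM was 8.90 in the control, 22.7 after knockdown and 6.08 with YK-4-279. The log2 ratio of 1.26 in the knockdown library was the highest of the family, and it was 1.55 after level adjustment. With YK-4-279 the ratio was -0.48. DHX16, the human counterpart of yeast Prp2, read 3.54, 9.29 and 4.15 scaled FPKM, with log2 ratios of 1.18 and 0.18, and after level adjustment the knockdown ratio was 0.97, short of 2-fold. DHX16 and DDX39B are each the sum of 8 loci that carry the name. Their knockdown ratios were 1.19 and -1.22 from the locus with the highest mean alone. A DDX39B locus also carries the neighbouring gene ATP6V1G2, so the DDX39B value may hold both. With joined loci left out DDX39B was not compared, so its ratio cannot be separated from that of ATP6V1G2 here. DHX40 read 4.12, 10.5 and 4.36 scaled FPKM and had log2 ratios of 1.17 and 0.066. The other members of the splicing group were DDX23 (a U5 snRNP helicase), DDX46 (Prp5), DHX8 (Prp22), DHX38 (Prp16) and DHX32. Their log2 ratios ran from -0.70 to 0.59 in the knockdown library and from -0.57 to 0.096 with YK-4-279. DDX46 shares its locus with the neighbouring gene C5orf24, so its value may hold both.

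**Figure D2:**
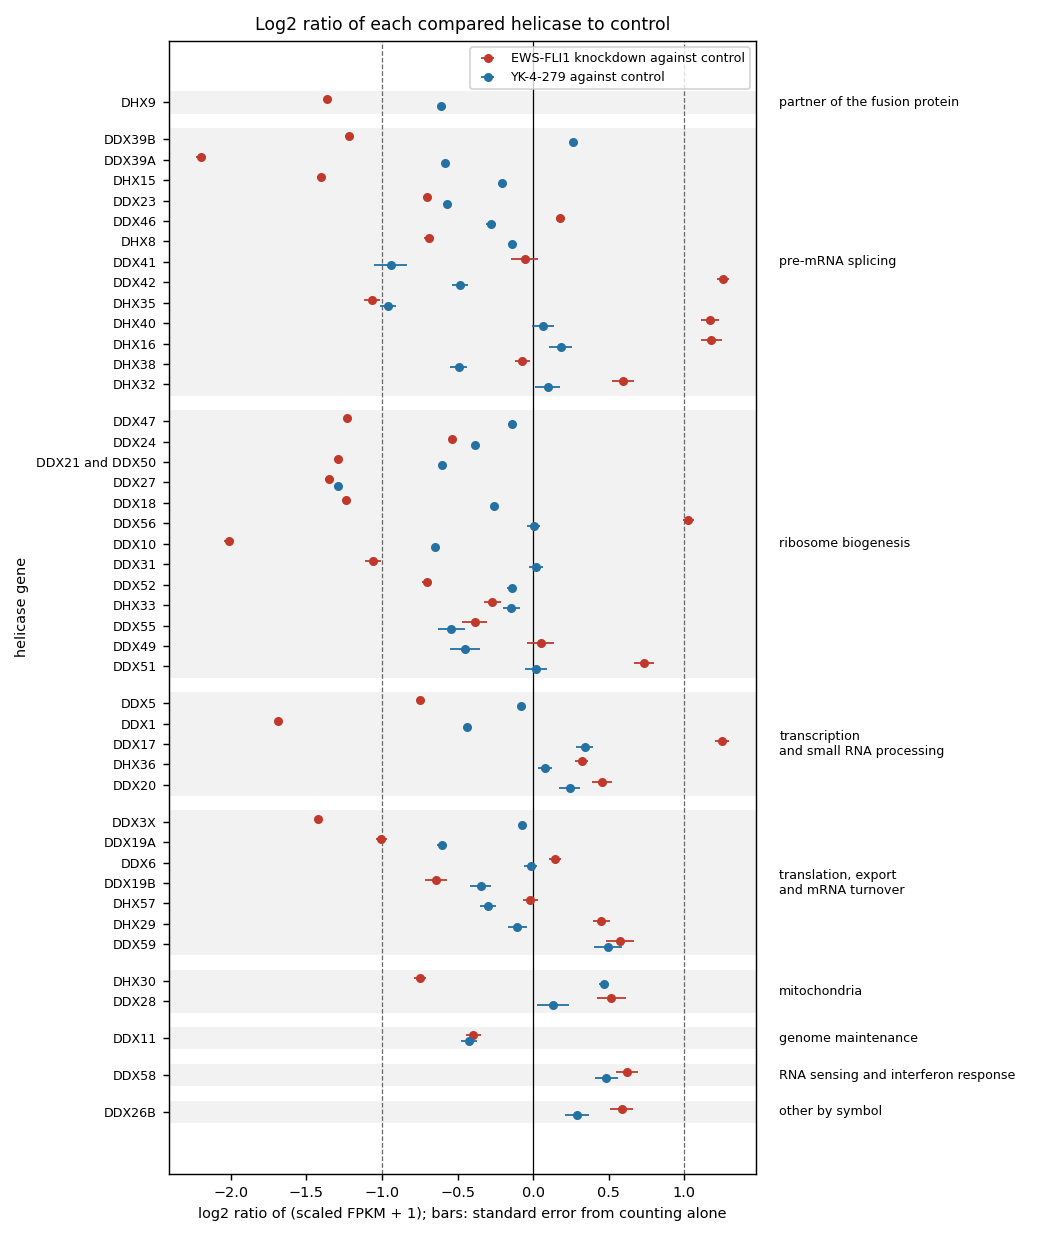
Log2 ratio to control of 44 compared helicase loci (horizontal axis, log2 of scaled FPKM + 1), grouped by role, for the knockdown library (red) and YK-4-279 (blue). Bars are the standard error from counting alone and say nothing of how cultures vary, and dashed lines mark a 2-fold ratio. Red points spread from -2.20 (DDX39A) to 1.26 (DDX42), while 1 blue point, DDX27, lies past a dashed line.

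Ribosome biogenesis helicases act in the nucleolus on precursors of ribosomal RNA, and of 16 symbols on 15 loci, 13 loci were compared. In the knockdown library 1 was higher, 6 were lower and 6 neither, with a median log2 ratio of -0.70 and of -0.41 after level adjustment. Among all compared genes 17.3% were lower, and 40.3% in the 3 highest bins, where 5 of the 6 lower loci lie. After level adjustment DDX10 alone of these loci was lower. DDX10 read 36.0 scaled FPKM in control cells, 8.16 after knockdown and 22.6 with YK-4-279. Its log2 ratio of -2.01 in the knockdown library was -1.45 after level adjustment, the lowest level-adjusted value of the family. With YK-4-279 the ratio was -0.65.

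DDX27, which acts in the making of the large ribosomal subunit, was the only helicase past the 2-fold threshold with YK-4-279. It stood at 84.0 scaled FPKM in control cells, 32.4 after knockdown and 33.8 with YK-4-279, so both treated libraries lay at a like level below the control. The log2 ratios were -1.35 after knockdown and -1.29 with YK-4-279, each with a counting standard error of 0.027 and 0.028. The same control value enters both ratios. After level adjustment they were -0.54 and -1.22.

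DDX47, the second most abundant helicase in every library, read 321, 136 and 291 scaled FPKM, with log2 ratios of -1.23 and -0.14. The locus shared by DDX21, a nucleolar helicase that links ribosomal RNA synthesis and processing, and its near copy DDX50 read 80.0, 32.1 and 52.4 scaled FPKM, with log2 ratios of -1.29 and -0.60. DDX18 read 58.3, 24.1 and 48.6 scaled FPKM, with log2 ratios of -1.24 and -0.26. In these 3 loci the control was highest and the knockdown library lowest, and their level-adjusted knockdown ratios, from -0.49 to -0.24, were within 2-fold. DDX31 read 15.3, 6.84 and 15.5 scaled FPKM, so the knockdown library lay below both others, with log2 ratios of -1.06 and 0.017 and a level-adjusted knockdown ratio of -0.76.

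DDX56 was higher in the knockdown library. Its locus, which also carries the neighbouring gene TMED4, read 24.7 scaled FPKM in control cells, 51.5 after knockdown and 24.8 with YK-4-279. The log2 ratios were 1.03 and 0.0031, and the knockdown ratio was 1.83 after level adjustment, the highest of the family on that scale. How much of it belongs to DDX56 and how much to TMED4 cannot be told apart in these values. DDX51, among the scarcest compared helicases, read 1.16, 2.58 and 1.18 scaled FPKM, with log2 ratios of 0.73 and 0.016. The remaining members DDX24, DDX49, DDX52, DDX55 and DHX33 had log2 ratios from -0.70 to 0.051 in the knockdown library and from -0.54 to -0.14 with YK-4-279.

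Among 5 helicases of transcription and small RNA processing, 1 was higher and 1 lower after knockdown, beside 18.7% and 17.3% of all compared genes. DDX5, or p68, a transcription coregulator and partner of the microRNA-processing enzyme DROSHA, was the most abundant helicase in every library. It stood at 779 scaled FPKM in control cells, 464 after knockdown and 735 with YK-4-279, log2 ratios of -0.75 and -0.084. The locus of DDX5 also carries the names MIR3064 and MIR5047, so its value may hold them too. DDX17, or p72, the closest relative of DDX5, read 11.5, 28.7 and 14.8 scaled FPKM, and the knockdown library was the highest of the 3. The log2 ratios of DDX17 were 1.25 and 0.34, and the knockdown ratio was 1.82 after level adjustment, against 0.25 for DDX5. Both genes have long conserved stretches, and how reads shared between them were assigned is not given in the sources used here.

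DDX1, a part of the tRNA ligase complex, read 136, 41.5 and 99.7 scaled FPKM. Its log2 ratio was -1.69 in the knockdown library, the third lowest of the family, and -0.44 with YK-4-279. After level adjustment the knockdown ratio was -0.69. DHX36, which resolves G-quadruplexes, and DDX20, the Gemin3 subunit of the SMN complex, had log2 ratios of 0.32 and 0.46 in the knockdown library and of 0.075 and 0.24 with YK-4-279.

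For translation, export and mRNA turnover, 7 of 8 helicases were compared, and after knockdown 2 were lower and 0 higher. Over all compared genes 17.3% were lower and 18.7% higher. The lower ones, DDX3X and DDX19A, lie in the highest and the next bin of expression, where 49.1% and 40.0% of all genes were lower. DDX3X, which helps ribosomes start on structured messages, read 101, 36.9 and 95.5 scaled FPKM. Its log2 ratios were -1.42 and -0.074, and the knockdown ratio was -0.43 after level adjustment. DDX19A and DDX19B are near-identical copies that work at the nuclear pore. DDX19A read 46.9, 22.9 and 30.6 scaled FPKM and lay just past the threshold after knockdown, 2.01-fold lower, and its log2 ratio with YK-4-279 was -0.60. After level adjustment the knockdown ratio of DDX19A was -0.20. DDX19B read 11.0, 6.70 and 8.43 scaled FPKM, with log2 ratios of -0.64 and -0.35. In both copies the control was highest and the knockdown library lowest, and the split of reads between them is uncertain. DDX59 read 1.25, 2.34 and 2.16 scaled FPKM, with log2 ratios of 0.57 and 0.50. DDX6, a helicase of mRNA decay and P-bodies, DHX29, a scanning factor, and DHX57 ranged from -0.019 to 0.45 in the knockdown library and from -0.30 to -0.017 with YK-4-279.

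The mitochondrial helicases DHX30 and DDX28, both needed to assemble the mitochondrial ribosome, stayed within 2-fold of control. DHX30 read 17.4 scaled FPKM in control cells, 9.95 after knockdown and 24.5 with YK-4-279. Its log2 ratios were -0.75 and 0.47, so the treated libraries lay on opposite sides of the control. DDX28 read 1.51, 2.59 and 1.75 scaled FPKM, with log2 ratios of 0.52 and 0.13. DDX11, a DNA helicase of sister chromatid cohesion, read 9.44, 6.94 and 6.78 scaled FPKM, with log2 ratios of -0.40 and -0.42. DDX58, the viral RNA sensor RIG-I, read 0.888, 1.91 and 1.64 scaled FPKM, with log2 ratios of 0.62 and 0.48. At so low a level the pseudocount of 1 decides the call of DDX58, and with 0.1 its knockdown ratio was 1.02. DDX26B, an Integrator-related gene now called INTS6L that carries the family's old symbol, was the scarcest compared member at 0.652, 1.48 and 1.02 scaled FPKM. Its log2 ratios were 0.59 and 0.29. The Y-linked DDX3Y was compared and enters the counts, and its level is not given.

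A total of 10 members lay below a mean of 1 scaled FPKM and were not compared. The germ line and testis helicases DDX4 (VASA), DDX25, DDX43 and DDX53 had mean levels from 0.154 to 0.400 scaled FPKM. The interferon-inducible near copies DDX60 and DDX60L read 0.195, 0.540 and 1.05 and 0.0929, 0.659 and 0.583 scaled FPKM, and DHX58 (LGP2) had a mean of 0.0573. The other members below the minimum were DDX54, DHX37 and DHX34, with means from 0.385 to 0.789. Among compared members the levels spanned from 1.05 for DDX26B to 660 for DDX5 as means over the libraries. The order of the 5 most abundant was DDX5, DDX47, DDX39B, DDX39A and DHX15 in the control and with YK-4-279. In the knockdown library DDX24, number 8 in the control, was number 3 and DDX39A was number 8. Neighbours in this order cannot be separated beyond a spread, since each level comes from 1 library.

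**Figure D3:**
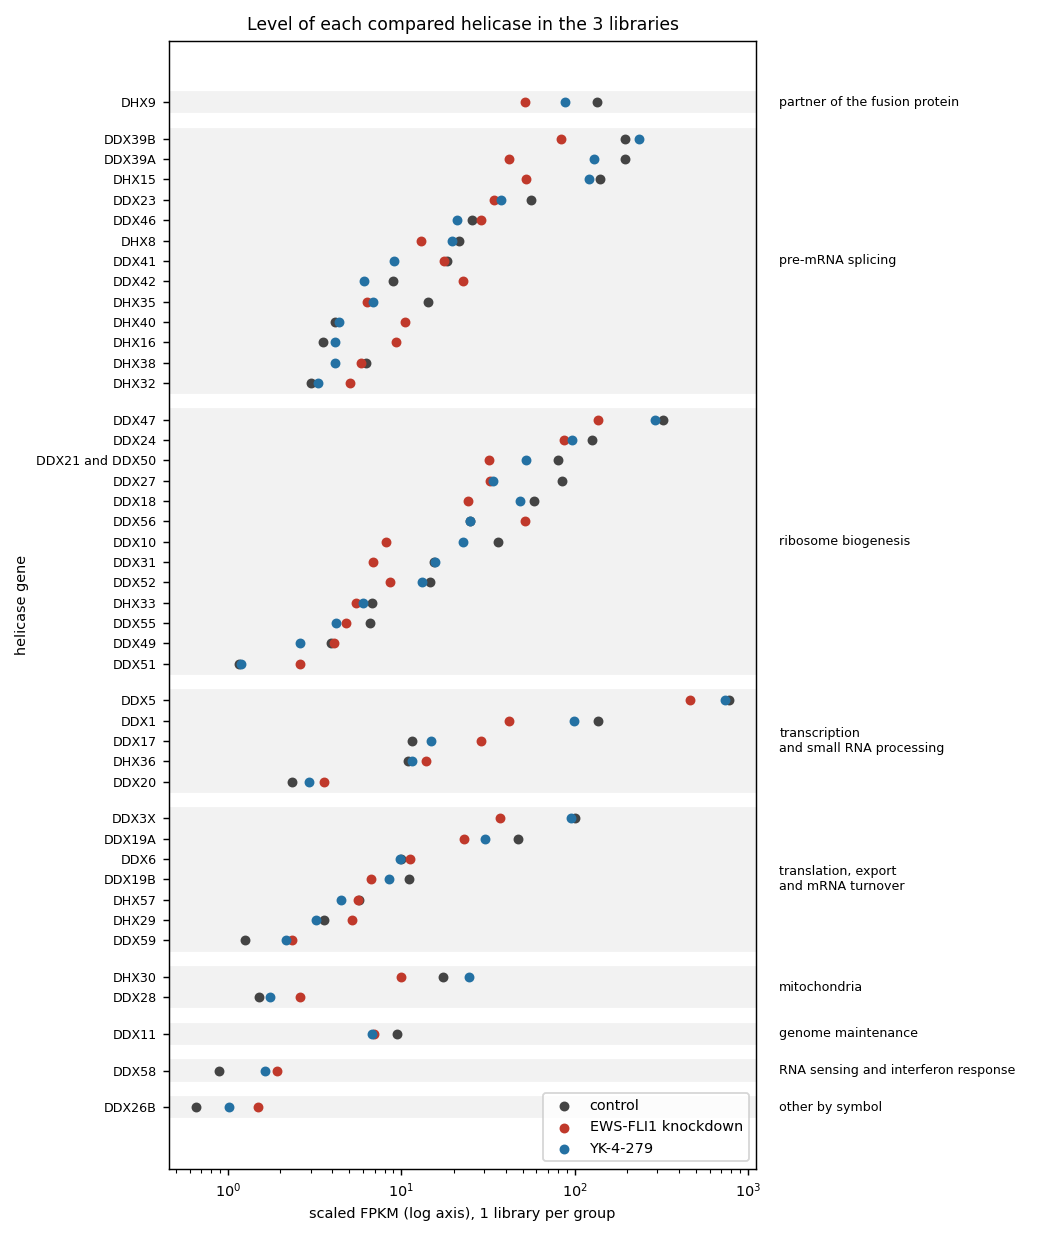
Scaled FPKM of 44 compared helicase loci (horizontal log axis) in the control, knockdown and YK-4-279 libraries, grouped by role and ordered by mean. Each point is 1 library with no error bar; DDX5 leads in every library, and for DDX39A, DDX1, DDX3X and DHX9 the knockdown point is the lowest of the 3.

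Set directly against the knockdown library, YK-4-279 gave 9 higher and 3 lower helicases of 45, with a median log2 ratio of -0.029. The background of this comparison was 15.7% higher and 15.4% lower. DDX39A had the highest ratio at 1.62 and DDX42 the lowest at -1.74. DDX39B (1.49), DDX10 (1.37), DDX3X (1.35), DDX1 (1.24), DHX30 (1.22), DHX15 (1.20), DDX47 (1.09) and DDX31 (1.08) were also higher, and DHX40 (-1.10) and DDX56 (-1.02) lower. After level adjustment 0 were higher and 5 lower (DDX42, DDX56, DDX17, DDX41 and DHX40), beside 9.39% and 13.9% of all genes. DHX9 was 0.75 on the log2 scale above the knockdown library, and -0.25 after level adjustment.

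Proteins that work with the helicases were read from lists of partners. Beside their counts, 17.3% of all compared genes were lower and 18.7% higher after knockdown. In the 3 highest bins of expression these shares were 40.3% and 8.49%. With YK-4-279, 1.72% of all compared genes were lower and 2.76% higher. Of 15 compared rRNA processing and snoRNP proteins, 9 were lower and 0 higher after knockdown, with a median log2 ratio of -1.25 and of -0.67 after level adjustment. NPM1, the nucleolar chaperone, was lowest of that list at -2.01 and NOL6 highest at 0.85. With YK-4-279 1 of the 15 was lower, NOP2 at -1.30, and FBL was highest at 0.63. Of 12 mRNA export and exon junction proteins, 6 were lower in the knockdown library and 0 higher. Their median log2 ratio there was -0.89, and -0.52 after level adjustment. ALYREF, the adaptor that binds DDX39A and DDX39B, was lowest at -2.03 and CASC3 highest at 0.95. With YK-4-279, GLE1, the activator of DDX19 at the nuclear pore, was the 1 lower gene at -1.20 and RBM8A was highest at 0.26.

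Of 16 spliceosome proteins, 7 were lower in the knockdown library and 0 higher, beside 17.3% and 18.7% of all compared genes. Their median log2 ratio there was -0.65, and -0.27 after level adjustment. EFTUD2, the U5 GTPase, was lowest at -1.73 and SF3A1 highest at 0.81. With YK-4-279 TFIP11, the cofactor of DHX15, was the 1 lower gene at -1.86 and PRPF19 was highest at 0.55. Of 7 microprocessor and SMN complex proteins, 3 were lower in the knockdown library: GEMIN6, the lowest at -2.13, GEMIN7 and GEMIN2. The median of these 7 was -0.83 there, and -0.39 after level adjustment. DROSHA was highest of that list at 0.19. With YK-4-279 0 of the 7 were called, and values ran from GEMIN4 at -0.77 to GEMIN2 at 0.32. Among 8 related helicases with other names, SKIV2L2 was lower in the knockdown library at -1.27 and MOV10 with YK-4-279 at -1.38. The highest were MOV10 at 0.62 in the knockdown library and EIF4A3 at 0.32 with YK-4-279.

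RNA sensing and interferon genes form the pathway of DDX58. After knockdown 4 of 11 compared were higher and 0 lower, beside 18.7% and 17.3% of all compared genes. Their median log2 ratio was 0.73, and 0.53 after level adjustment. IFI6 was highest at 2.22 and TBK1 lowest at -0.077. With YK-4-279, 3 were higher (ISG15, IFIT3 and IFIT2), beside 2.76% of all compared genes. ISG15 was highest at 1.44 and STAT2 lowest at -0.93.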

How the data were processed

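RNA-seq was made from 1 control, 1 EWS-FLI1 knockdown and 1 YK-4-279 library of TC32 cells. Total RNA was turned into cDNA with a SMARTer kit, then fragmented and PCR-amplified, per the labels' protocols. The authors deposited FPKM for 88434 loci per library. Per the submitters' processing notes, CASAVA 1.8.2, TopHat and Cufflinks 2.2.1 were used on GRCh37 (hg19). Strand use, multi-mapping and any scaling between libraries were not given in the sources used here.

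Loci of 1 name were summed (24751 named loci, 22713 names), and a joined name counted for the helicase in it. Scale factors were medians of ratios to the geometric mean over named genes with a mean deposited FPKM of at least 1 and a value above 0 in all 3 libraries. Genes with a mean scaled FPKM of at least 1 were compared (9731). Ratios are differences of log2(scaled FPKM + 1), which understate the change of low genes. Level adjustment used 10 equal groups by mean scaled FPKM. Fragments were estimated from the lowest steps of olfactory receptor genes (1 fragment in 1 kb was worth 0.0650, 0.0168 and 0.0127 FPKM in control, knockdown and YK-4-279) and GENCODE release 29 lengths. Among compared helicases this gave 119 to 75646 fragments in the control, 232 to 39250 in the knockdown library and 141 to 56059 with YK-4-279, and counting standard errors of log2 ratios to control of 0.0080 to 0.11. These cover counting error only, and for joined or summed loci are rougher still. The scaling was tested on simulated data with a uniform factor per library and no shift by level. That test could not show whether the scaling suits the knockdown library, which differed from control by level. Python 3.11.15, pandas 2.3.3, numpy 2.4.6 and matplotlib 3.10.9 were used.

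The family, the partner lists and the alternatives were chosen with earlier results of these data known. Named with values in every library were DHX9, members past 2-fold in a treated library, the 5 most and 3 least abundant, the extremes of each role and near-identical pairs, and from each partner list the highest and lowest ratio. No gene was matched to DHX9 by likeness of pattern, since 3 libraries are too few. The YK-4-279 ratios of DHX35 and DDX41, near the threshold, were singled out after their values were seen. Of the interferon list, 1 gene enters the counts and is not reported here.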

Additional observations from a re-analysis of the deposited data

How the results depend on the processing

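No paired analysis was possible because each group has 1 library, and for the same reason leaving out a library was not possible. Medians and DHX9 values below are log2 ratios to control unless they are said to compare YK-4-279 with the knockdown library. The direction of DHX9 in each treated library against control was below 0 in every setting run. DDX39A and DDX10 stayed past 2-fold in the knockdown library in all 11 settings run, as did DDX27 with YK-4-279. The settings all use the same 3 libraries and are no replicate check. In unscaled FPKM 70.9% of all genes were lower after knockdown and 91.0% with YK-4-279, so passing that setting does not set a gene apart.

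The scale between libraries changed the most. With deposited FPKM left unscaled, after knockdown 37 helicases were lower and 0 higher (median -2.30, DHX9 -3.49), 45 were lower with YK-4-279 (median -2.75, DHX9 -3.29), and YK-4-279 against knockdown gave 1 higher and 7 lower (median -0.40, DHX9 0.20). On that scale 70.9% of all genes were lower after knockdown, 91.0% with YK-4-279 and 22.5% between the treated libraries. The 5 helicases higher in the knockdown library were then below control, with DDX17 at -0.80, DDX42 at -0.76, DDX56 at -1.07, DHX16 at -0.68 and DHX40 at -0.72. Deposited ratios centred on their median gave medians of -0.52 after knockdown and -0.53 with YK-4-279. On that scale 2 were higher and 9 lower with YK-4-279, beside 13.1% and 4.37% of all genes. DHX9 was then at -1.71, -1.07 and, between the treated libraries, 0.59. Upper quartile scaling gave a knockdown median of -0.49 and DHX9 at -1.48, -0.56 and 0.92. For YK-4-279 against knockdown it gave a median of 0.12 with 1 lower, beside 12.7% of all genes. Scaling on all named genes above 0, chosen after seeing the data, left the median of all genes at -0.52 after knockdown and -0.39 with YK-4-279. It gave 0 higher in the knockdown library (median -0.97), 10 lower with YK-4-279 (median -0.69), 1 lower for YK-4-279 against knockdown (median 0.15), and DHX9 at -2.02, -1.12 and 0.89, where the shares of all genes were 9.79% higher, 8.40% lower and 12.3% lower.

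Level adjustment left 2 helicases lower in the knockdown library (median -0.18, DHX9 -0.37), beside 10.3% of all genes. For YK-4-279 against knockdown it left 0 higher and 5 lower (DHX9 -0.25), beside 9.39% and 13.9% of all genes. A pseudocount of 0.1 gave 8 higher in the knockdown library, 3 lower with YK-4-279 and 5 lower between the treated libraries, beside 25.7%, 2.72% and 21.4% of all genes, and the 3 added higher ones were DDX26B, DDX51 and DDX58. A 1.5-fold threshold gave 9, 8 and 8 for the same counts. The shares of all genes at 1.5-fold are not given, so whether these counts differ from the background cannot be read from them. With no filter the median was -0.019 in the knockdown library and 0.11 between the treated libraries. With a minimum of 5 scaled FPKM it was -0.69 in the knockdown library, -0.29 with YK-4-279 and 0.14 between them. Why the settings differ was not tested.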

Other observations

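The names dropped as pseudogenes or antisense genes were low. DDX11-AS1, antisense to DDX11, read 2.10 scaled FPKM in control cells, 1.26 after knockdown and 1.52 with YK-4-279, and strand use in counting is not given in the sources used here, so DDX11 may share reads with it. DDX12P, a near copy of DDX11, read 0.700, 0.831 and 0.867 scaled FPKM. Of the DDX11L pseudogenes, DDX11L1, DDX11L5 and DDX11L9 were listed at 0 in all 3 libraries, DDX11L10 was listed above 0 in the knockdown library alone, and DDX11L2 ran from 0.0364 to 0.152 scaled FPKM.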
